A study of Mus musculus with 8 samples.

Results

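Transcripts of 10 genes of prostaglandin synthesis, breakdown and reception were followed through 8 RNA-seq libraries of mouse embryonic fibroblasts (MEFs), connective tissue cells grown from embryos and kept here at low oxygen. The genes were chosen by symbol for their role in the pathway: Pla2g4a, Ptgs1, Ptgs2, Ptges, Ptges2, Ptgis, Ptgr1, Hpgd, Ptger2 and Ptger4. All 10 of 10 symbols matched a row in the count tables, among 54838 gene rows in all, and all 10 passed the filter on low counts in every comparison. The libraries fall into 4 groups of 2. Proliferating cells are labelled as the untreated control. Cells labelled n-Sen had been made senescent with nutlin3a, a compound that raises p53 by keeping it from its inhibitor MDM2. RO3306, which inhibits CDK1, first arrested them in G2; nutlin3a followed for 48 h, and they were kept for 14 days with 100 nM of the PLK1 inhibitor BI-2536 to remove cells still dividing. The other two groups are n-Sen cells labelled as control (n-Sen_control) or alkali (n-Sen_alkali). The labels describe 24 h in pH-adjusted, HEPES-buffered medium after senescence, and do not say whether plain n-Sen cells had this step too. The pH values, the mouse strain and the passage are not given in the sources used here. Every n-Sen group thus shares nutlin3a, RO3306, BI-2536 and a longer time in culture, which cannot be told apart from senescence when n-Sen is set against proliferating cells.

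Prostaglandins are short-range lipid signals. Cytosolic phospholipase A2 (Pla2g4a) frees arachidonic acid from membranes, and the cyclooxygenases COX-1 (Ptgs1) and COX-2 (Ptgs2) turn it into the unstable intermediate prostaglandin H. Terminal synthases then make the final products: Ptges and Ptges2 encode prostaglandin E synthases and Ptgis encodes prostacyclin synthase. Prostaglandin E acts on receptors of the EP family, of which EP2 (Ptger2) and EP4 (Ptger4) raise cyclic AMP. Hpgd encodes the dehydrogenase that begins prostaglandin inactivation, and Ptgr1 encodes a reductase that acts on the oxidised product. COX-1 is usually the constitutive and COX-2 the inducible enzyme, and fibroblasts that enter senescence are known as a source of prostaglandin E.

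Promoter sequences are shown for the genes on which the results turn: the cyclooxygenases, which differed between the comparisons, and Ptges and Hpgd, which fell in alkaline medium where Ptgs2 rose. RefSeq (GRCm38.p6) windows matched 9 of the 10 genes, and Ptgis had no entry. Each line gives 280 bases on the strand of the gene, from 250 before the annotated start site to 30 after it. Capitals mark matches, on either strand, to a TATA box (TATAAA), a cyclic AMP response element core (TGACG), an E-box (CACGTG) or a C/EBP-type motif (TTNNGNAA).
Ptgs2, chr1:150099781-150100060, plus strand: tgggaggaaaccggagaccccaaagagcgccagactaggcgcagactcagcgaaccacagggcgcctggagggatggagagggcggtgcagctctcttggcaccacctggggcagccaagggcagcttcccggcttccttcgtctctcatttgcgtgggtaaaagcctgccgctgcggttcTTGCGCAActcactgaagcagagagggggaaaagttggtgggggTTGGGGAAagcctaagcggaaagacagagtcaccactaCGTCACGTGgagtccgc
Ptgs1, chr2:36230176-36230455, plus strand: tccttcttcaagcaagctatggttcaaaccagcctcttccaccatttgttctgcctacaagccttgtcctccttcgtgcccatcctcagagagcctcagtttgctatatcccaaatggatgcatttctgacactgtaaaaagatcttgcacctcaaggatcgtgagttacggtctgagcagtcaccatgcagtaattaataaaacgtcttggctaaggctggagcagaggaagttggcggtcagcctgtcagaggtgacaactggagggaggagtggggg
Ptges, chr2:30903268-30903547, minus strand: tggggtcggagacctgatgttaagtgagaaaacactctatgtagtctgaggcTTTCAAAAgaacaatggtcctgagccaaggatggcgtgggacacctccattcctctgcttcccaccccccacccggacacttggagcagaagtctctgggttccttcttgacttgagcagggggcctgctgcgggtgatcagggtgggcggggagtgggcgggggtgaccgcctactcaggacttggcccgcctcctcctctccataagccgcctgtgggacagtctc
Hpgd, chr8:56294302-56294581, plus strand: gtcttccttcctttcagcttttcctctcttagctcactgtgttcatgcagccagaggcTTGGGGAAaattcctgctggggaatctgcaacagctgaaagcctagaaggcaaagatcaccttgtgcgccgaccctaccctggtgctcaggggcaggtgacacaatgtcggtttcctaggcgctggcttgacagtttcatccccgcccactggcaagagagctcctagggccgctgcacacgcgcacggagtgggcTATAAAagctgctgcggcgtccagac

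The Ptgs2 window held 4 of these matches. A C/EBP-type match (TTGCGCAA) began 69 bases before the start site and another (TTGGGGAA) 25 bases before it. A response element core, read on the opposite strand, began 13 bases after the annotated start site and overlapped an E-box that began at 16. Start sites were taken from the annotation and were not mapped in these cells, so whether these bases are transcribed is not known here. Among 32851 windows of the same length, 20.8% held the core, 7.15% the E-box, 40.7% the C/EBP-type motif and 13.6% the TATA motif. No match to the 4 motifs was in the Ptgs1 window. Ptges held 1 C/EBP-type match, and Hpgd held 1 C/EBP-type match and a TATAAA that began 4 bases after the RefSeq start. The GENCODE annotation, which gave the gene coordinates below, places the start of these 2 genes elsewhere. It starts Hpgd at 56294585 and Ptges, on the minus strand, at 30929863, both outside the bases printed. The printed Hpgd bases, TATAAA included, all lie before its GENCODE start, and the printed Ptges bases all lie after its own. Positions of matches in these 2 windows therefore depend on the annotation. Of the other motifs searched, the full response element (TGACGTCA, in 1.79% of windows) and AP-1 (TGANTCA, 7.81%) were in no window of these genes. A CCAAT box (CCAAT, 37.4%), a GC box (GGGCGG, 35.7%) and an NF-kB-type motif (50.8%) matched 4, 5 and 5 of the 10 windows, Pla2g4a having 2. These matches are descriptions of letters, not of bound sites.

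Total counts ran from 40608517 to 54183060 per library. Libraries of one group differed by more than sampling noise (chi-square per degree of freedom 4.63 to 7.39), so none was treated as a repeat of another. The labels name no separate cultures, so each p-value rests on a spread between libraries that may be purely technical. The labels were borne out by Mki67, the Ki-67 proliferation antigen, at 410 and 427 CPM in proliferating and 6.02 to 9.88 CPM in the 6 n-Sen libraries, and by Cdkn2a at 15.8 and 16.9 against 278 to 333 CPM. All 12 fibroblast markers had counts in every library, and their sum of 11564 to 18845 CPM was carried mostly by Col1a1, Col1a2 and Vim. Of these 12, 9 rose and 3 fell in n-Sen against proliferating cells (median log2 fold change 0.78). Lum rose from 0.576 and 0.597 CPM in proliferating cells to 5.57 and 7.22 CPM in n-Sen, and Col3a1 from 278 to 1685 CPM. Pdgfra, among the 3 that fell, went from 87.9 CPM in proliferating cells to 9.81 CPM in n-Sen. The cultures also carried macrophage transcripts. The 20 macrophage markers summed to 64.3 and 72.1 CPM in proliferating cells, 1413 and 1510 in n-Sen, 1394 and 1471 in n-Sen_control and 1286 and 1289 in n-Sen_alkali. Their defining genes Adgre1, Csf1r and Ptprc had counts in all 8 libraries. Defining markers of endothelium (Cdh5, Pecam1), of mast cells (Cpa3, Ms4a2) and of epithelium (Epcam) stayed at or under 1.04 CPM. Some other markers of those types were higher in proliferating cells. Krt19 measured 59.7 and 52.2 against 3.28 and 3.00 CPM in n-Sen, and Kdr 24.4 and 20.8 against 2.55 and 2.59 CPM. The endothelial list went both ways. Of 5 endothelial markers tested in n-Sen against proliferating cells, 2 rose, 2 fell and 1 did not pass (median log2 fold change -0.28). Erg, for one, measured 0.0960 and 0.199 CPM in proliferating and 2.14 and 1.94 CPM in n-Sen cells. The 10 epithelial and mesothelial markers summed to 95.3 and 99.7 CPM in proliferating and 10.8 and 11 CPM in n-Sen cells, with Msln falling from 9.38 ± 2.13 to 1.21 ± 0.128 CPM, and the platelet markers Ppbp and Itga2b lay between 1.19 and 6.32 CPM. In bulk RNA, fewer cells of a type and less RNA per cell cannot be told apart.

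Levels are given in CPM, counts scaled to TMM-adjusted library sizes of all 8 libraries, as mean ± SD (n = 2). Differences are on the log2 scale ± SE, from the quasi-likelihood test in edgeR. A gene passed at a Benjamini-Hochberg adjusted p under 0.05 over all genes tested. Where genes are compared with each other, CPM was divided by merged exon length (CPM per kb).

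Ptgs2 stood far above the other genes of the route. Per length, it averaged 89.4 CPM per kb in proliferating cells, 90.0 in n-Sen, 214 in n-Sen_control and 357 in n-Sen_alkali, where it ranked 112 of 20215 genes. The median gene lay between 2.65 and 2.81 CPM per kb. In proliferating cells the order by level per kb was Ptgs2, Ptgs1 (19.5 ± 0.588), Ptgr1 (17.5 ± 0.269), Pla2g4a (16.0 ± 0.551), Ptgis (14.0 ± 0.0313), Ptges (8.08 ± 0.752), Ptges2 (4.0 ± 0.0109), Ptger4 (2.64 ± 0.172), Hpgd (0.206 ± 0.00939) and Ptger2 (0.00925 ± 0.0131). In n-Sen cells Pla2g4a was second (18.6 ± 0.138), followed by Ptgr1 (14.3 ± 0.502) and Ptgs1 (10.1 ± 0.370). Ptgis (8.59 ± 0.0510) and Hpgd (8.28 ± 0.0705) lay next to each other in n-Sen, above Ptges (7.14 ± 0.474). In control medium Ptgs1 (15.3 ± 0.204) and Ptgr1 (15.1 ± 1.37), and Ptges (8.45 ± 0.483) and Ptgis (8.38 ± 0.463), differed by less than the SD of the second gene of each pair. In alkaline medium Pla2g4a (24.6 ± 0.390), Ptgs1 (16.3 ± 0.716) and Ptgr1 (14.4 ± 1.20) came after Ptgs2, and Ptgis (5.73 ± 0.335), Ptges (4.62 ± 0.474) and Ptges2 (4.19 ± 0.145) were close together. Ptger2 was the lowest of the 10 in every group, at most 0.217 ± 0.0164 CPM per kb.

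**Figure D1:**
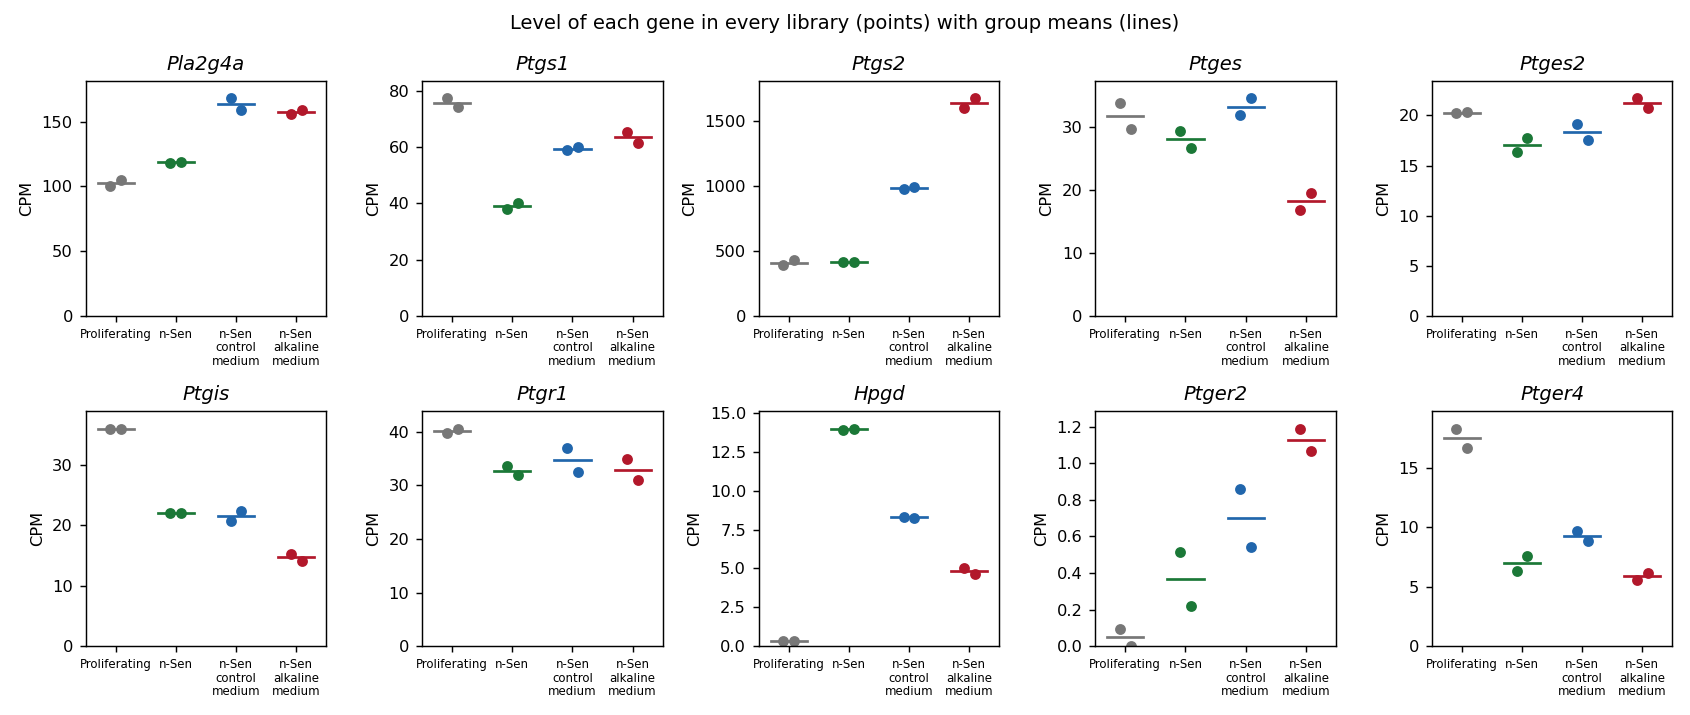
CPM of the 10 genes (vertical axes from 0) in the 2 libraries of each group (points), with the group mean as a line. Ptgs2 lies between 389 and 430 CPM in proliferating and n-Sen cells, at 972 and 989 in n-Sen_control and at 1599 and 1670 in n-Sen_alkali, while Ptges, Ptgis, Hpgd and Ptger4 are lower in alkaline than in control medium.

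The first comparison sets n-Sen against proliferating cells. COX-2 transcripts did not differ detectably, while COX-1, prostacyclin synthase and the receptor EP4 fell and the degrading enzyme Hpgd rose from near nothing. Of the 10 genes, 3 rose (Hpgd, Ptger2, Pla2g4a), 5 fell (Ptger4, Ptgs1, Ptgis, Ptgr1, Ptges2) and 2 did not pass (Ptgs2, Ptges). Across 19264 genes tested, 34.0% rose and 33.1% fell, so a call was common in this contrast. The median log2 fold change of the 10 was -0.21, against 0.00 over all genes. The libraries of the compared groups did not overlap for 83.4% of all genes. Of 9 epithelial and mesothelial markers tested 7 fell and 1 rose (median -2.96), and their part in the falls below was not tested.

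Pla2g4a, which supplies arachidonic acid (ENSMUSG00000056220, mm10 chromosome 1, 149829618 to 149961290, minus strand), measured 100 and 105 CPM in proliferating and 118 and 119 CPM in n-Sen cells. The groups did not overlap, and the rise was small (0.21 ± 0.0567, adjusted p 0.00328).

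Ptgs1 (ENSMUSG00000047250, chromosome 2, 36230426 to 36252272, plus strand) fell from 77.2 and 74.0 CPM to 38.1 and 40.1 CPM. Its n-Sen libraries lay well under both proliferating ones, a 1.93-fold fall (-0.95 ± 0.0672, adjusted p 1.00e-09). Ptgs2 (ENSMUSG00000032487, chromosome 1, 150100031 to 150108227, plus strand) measured 389 and 430 CPM in proliferating and 410 and 414 CPM in n-Sen cells. Both n-Sen libraries lay between the proliferating ones, and the difference was 0.01 ± 0.0535 (95% interval -0.10 to 0.13, adjusted p 0.850). The ratio of Ptgs2 to Ptgs1 per kb was 4.27 and 4.93 in proliferating and 9.14 and 8.76 in n-Sen libraries.

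Among the terminal synthases, Ptgis (ENSMUSG00000017969, chromosome 2, 167191805 to 167240604, minus strand) fell from 35.9 and 36.0 to 22.1 and 22.0 CPM. This was a 1.63-fold fall (-0.70 ± 0.0815, adjusted p 6.43e-07) with little spread in either group. Ptges (ENSMUSG00000050737, chromosome 2, 30889471 to 30929863, minus strand), the inducible microsomal prostaglandin E synthase, measured 33.8 and 29.7 CPM against 29.4 and 26.7 CPM. The groups were close and it did not pass (-0.18 ± 0.0884, 95% interval -0.36 to 0.01, adjusted p 0.0889); without proliferating replicate 2 it did (-0.27, adjusted p 0.0161). Ptges2 (ENSMUSG00000026820, chromosome 2, 32395896 to 32405772, plus strand) measured 20.2 and 20.3 against 16.4 and 17.8 CPM, a fall of 0.24 ± 0.0980 on the log2 scale at an adjusted p of 0.0389. That call was lost without proliferating replicate 1 (adjusted p 0.0808), proliferating replicate 2 (0.0888) or n-Sen replicate 1 (0.251), without a low-count filter (0.0922) and in DESeq2 (0.101).

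Of the inactivating enzymes, Hpgd (ENSMUSG00000031613, chromosome 8, 56294585 to 56321043, plus strand) rose from 0.336 and 0.358 CPM to 13.9 and 14.0 CPM. The deposited counts were 14 and 18 against 646 and 757, a 39.8-fold rise (5.31 ± 0.204, adjusted p 2.53e-13). The macrophage markers rose beside it (20 of 20, median 4.27), and their part in the rise of Hpgd was not tested. Ptgr1 (ENSMUSG00000028378, chromosome 4, 58965439 to 58987119, minus strand) measured 39.7 and 40.6 against 33.6 and 31.9 CPM, a small fall of 0.29 ± 0.0760 on the log2 scale (adjusted p 0.00252).

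The EP receptors moved in opposite directions from unequal levels. Ptger4 (ENSMUSG00000039942, chromosome 15, 5206661 to 5244187, minus strand) fell from 18.3 and 16.7 to 6.30 and 7.61 CPM, a 2.51-fold fall (-1.33 ± 0.127, adjusted p 5.48e-08). Ptger2 (ENSMUSG00000037759, chromosome 14, 44988195 to 45003820, plus strand) had deposited counts of 4 and 0 in proliferating and 23.5 and 12 in n-Sen cells. It passed (2.97 ± 0.972, adjusted p 0.0124) at 0.368 ± 0.207 CPM in the higher group, but not without proliferating replicate 2 (1.90, adjusted p 0.142) or n-Sen replicate 1 (2.25, adjusted p 0.217). Exons of Ptger2 share 246 bases with the antisense gene Gm17173, which had counts of 0 and 0 against 26.5 and 11, and whether counting used the strand is not given in the sources used here. Ptger4 shares 82 exon bases with Ttc33 and 1015 with the pseudogene Gm15937, both on the opposite strand, and carried fractional counts in 8 of 8 libraries. Deposited counts of Ttc33 were 554.5 and 685 in proliferating and 889.25 and 1076.75 in n-Sen cells. Those of Ptger4 were 764.5 and 840.5 against 293.5 and 410.75, and the part of shared reads was not tested. Ptgs1 and Ptgis share 148 and 156 bases with opposite-strand genes of lower counts, Gm43621 and 1110018N20Rik.

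**Figure D2:**
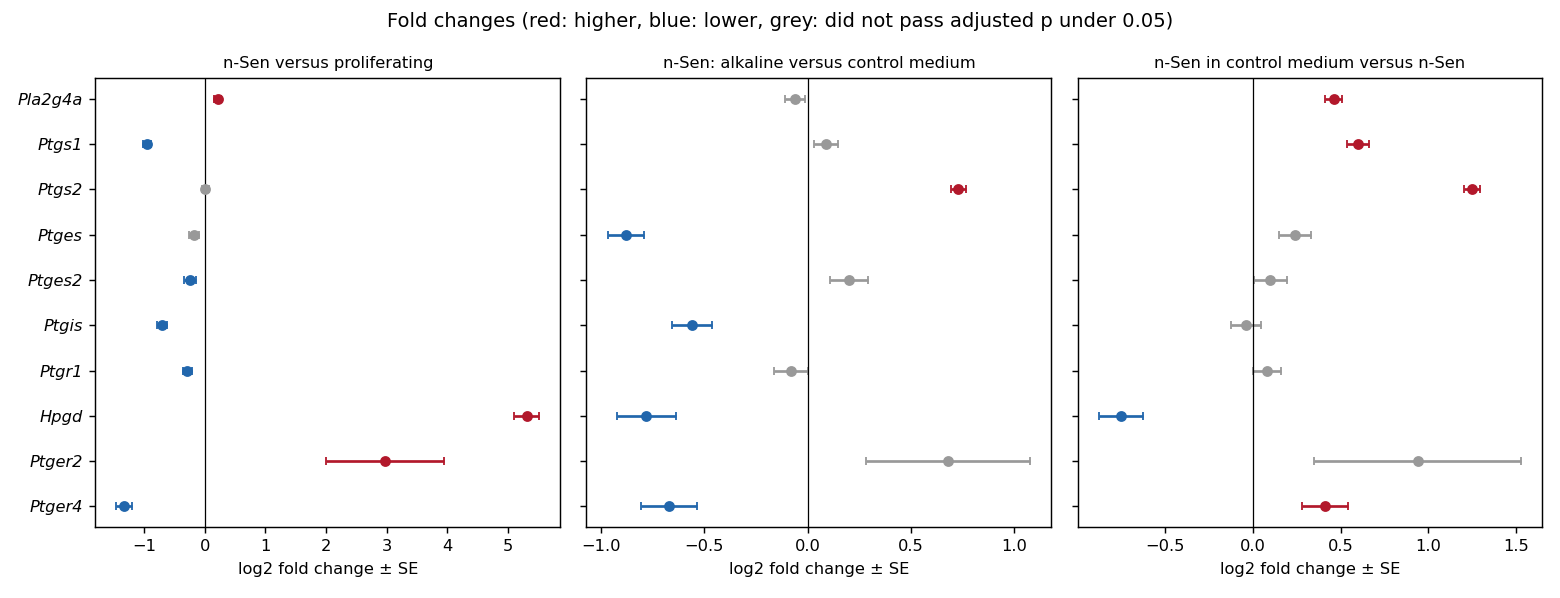
Log2 fold change ± SE of each gene in the 3 comparisons, coloured by call (red higher, blue lower, grey did not pass); each panel has its own horizontal scale. Ptgs2 is grey at 0.01 for n-Sen against proliferating cells and red at 0.73 and 1.25 in the other comparisons, and Hpgd is red at 5.31 in the first panel and blue at -0.78 and -0.75 in the others.

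The other genes of the pathway were read from lists chosen by role. Of 16 genes of fatty acid release, 8 were tested: 3 rose, 4 fell and 1 did not pass (median -0.04). Mgll, the monoacylglycerol lipase that also yields arachidonic acid, rose from 10.9 ± 1.09 to 37.3 ± 2.40 CPM (1.77 ± 0.0992). The phospholipase genes Pla2g12a and Pla2g6 rose by 0.48 ± 0.114 and 0.32 ± 0.0988. Anxa1, which encodes the phospholipase inhibitor annexin A1, was abundant and fell slightly, from 1717 and 1731 to 1527 and 1570 CPM. The phospholipase activator gene Plaa fell by 0.52 on the log2 scale. Pla2g4b fell by 1.26, but it shares 3878 exon bases with the read-through gene Gm28042 and its level is uncertain. The other gene that fell had a mean under 1 CPM in both groups.

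Of 11 other prostanoid enzyme genes, 9 were tested: 6 rose, 1 fell and 2 did not pass (median 0.74). Hpgds, the hematopoietic prostaglandin D synthase, rose from 0.432 and 0.976 to 12.4 and 12.7 CPM (4.12 ± 0.232, adjusted p 4.49e-11). Its libraries, like those of Hpgd, were separated by more than 10 CPM between the groups. Tbxas1, thromboxane synthase, rose from 1.57 ± 0.486 to 3.70 ± 0.418 CPM. The carbonyl reductase genes Cbr1 and Cbr2 rose by 0.74 ± 0.101 and 1.54 ± 0.109, and the prostaglandin reductase genes Ptgr2 and Zadh2 by 0.79 ± 0.0944 and 0.26 ± 0.0666. Exons of Ptgr2 share 1896 bases with an opposite-strand gene, which leaves its level uncertain, and Mgll, Tbxas1 and Ptgfr share 167, 144 and 329 exon bases with opposite-strand genes. Ptges3, a co-chaperone of Hsp90 also described as the cytosolic prostaglandin E synthase, was the one that fell, from 209 to 98.5 CPM (-1.08 ± 0.0531).

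Of 10 other receptor genes, 8 were tested: 4 rose, 2 fell and 2 did not pass (median 0.28). Those of prostaglandin F and thromboxane rose, Ptgfr from 1.52 ± 0.0459 to 7.03 ± 0.432 CPM and Tbxa2r from 3.23 ± 0.857 to 8.96 ± 0.718 CPM. The prostacyclin receptor gene Ptgir fell from 4.13 and 4.46 to 1.46 and 0.704 CPM (-2.01 ± 0.283, adjusted p 7.00e-06), and the nuclear receptor gene Pparg from 15.4 ± 0.561 to 6.44 ± 0.585 CPM. Ppard rose by 0.52 ± 0.0756. Among 3 transporter genes, Slco2a1, the prostaglandin uptake carrier, fell from 83.7 and 74.6 to 23.3 and 27.3 CPM (-1.64 ± 0.0842, adjusted p 1.28e-11), Slco3a1 rose by 1.05 ± 0.0700, and the export pump gene Abcc4 did not pass (-0.16 ± 0.101).

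The lipoxygenase branch, which makes leukotrienes from the same fatty acid, had 5 of 8 tested genes higher, 0 lower and 3 that did not pass (median 2.83). Alox5, 5-lipoxygenase, rose from 0.192 and 0.279 to 16.0 and 17.0 CPM (6.09 ± 0.214), and its activating protein gene Alox5ap from 0.651 ± 0.471 to 6.90 ± 1.03 CPM. Exons of Alox5ap share 189 bases with the antisense gene Gm19719. The leukotriene B receptor gene Ltb4r1 rose by 4.80 ± 0.431 and the epoxide hydrolase gene Ephx2 by 2.22 ± 0.155. Alox12 rose by 3.67 ± 0.833 from a level near 0, to 0.578 CPM. Alox5, Alox5ap, Hpgds and Tbxas1 are genes that macrophages are known to express. The macrophage markers rose by a median of 4.27 beside them, and the markers' part in these rises was not tested.

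Among 12 genes responsive to cyclic AMP, the second messenger of EP2, EP4 and the prostacyclin receptor, 8 fell, 3 rose and 1 did not pass (median -0.74). The phosphodiesterase genes Pde4b and Pde4d fell by 1.45 and 1.16 (log2), the kinase gene Sik1 by 0.93 and the nuclear receptor genes Nr4a1 and Nr4a2 by 0.96 and 0.88. Areg fell from 1.33 to 0.144 CPM, and Fos and Per1 fell by 0.60 and 0.34. The phosphatase gene Dusp1 (0.92 ± 0.0556), Nr4a3 (0.64 ± 0.169) and Crem (0.46 ± 0.158) rose. Crem shares 472 exon bases with an opposite-strand gene. These genes answer to many signals besides prostaglandins.

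The next comparison sets n-Sen_alkali against n-Sen_control and addresses the stated question of what an alkaline environment changes in senescent cells. COX-2 transcripts rose 1.66-fold, while those of the terminal synthases Ptges and Ptgis, of the degrading enzyme Hpgd and of the receptor EP4 fell. Of the 10 genes, 1 rose (Ptgs2), 4 fell (Ptges, Hpgd, Ptger4, Ptgis) and 5 did not pass. Over 19129 genes tested, 9.58% rose and 10.4% fell. The median of the 10 was -0.07, against -0.01 over all genes, and 56.7% of all genes had no overlap between the groups.

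Ptgs2 rose from 972 and 989 CPM to 1599 and 1670 CPM. Both alkaline libraries lay far above both controls (0.73 ± 0.0371, adjusted p 1.14e-12). Ptgs1 measured 58.8 and 59.9 in control and 65.4 and 61.5 CPM in alkaline medium. The groups did not overlap, yet the difference did not pass (0.09 ± 0.0592, 95% interval -0.03 to 0.21, adjusted p 0.345). Pla2g4a, upstream of both, measured 168 and 159 against 156 and 159 CPM and did not pass (-0.06 ± 0.0471, 95% interval -0.16 to 0.04, adjusted p 0.450).

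Ptges fell from 31.9 and 34.5 to 16.8 and 19.5 CPM, a 1.84-fold fall (-0.88 ± 0.0882, adjusted p 8.95e-08). Ptgis fell from 20.7 and 22.4 to 15.3 and 14.1 CPM, a 1.47-fold fall (-0.56 ± 0.0961, adjusted p 0.000139). Both synthases moved against Ptgs2. Per kb, the ratio of Ptges to Ptgs2 was 0.0382 and 0.0407 in control and 0.0123 and 0.0136 in alkaline medium. That of Ptgis to Ptgs2 was 0.0380 and 0.0403 against 0.0171 and 0.0151. Ptges2, the second prostaglandin E synthase gene, was 19.1 and 17.6 against 21.7 and 20.7 CPM and did not pass (0.20 ± 0.0912, adjusted p 0.134).

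Hpgd fell from 8.33 and 8.26 to 5.05 and 4.66 CPM, a 1.72-fold fall (-0.78 ± 0.144, adjusted p 0.000294). Of the macrophage markers 9 of 20 also fell and 0 rose (median -0.27), with sums of 1394 and 1471 against 1286 and 1289 CPM; their part in the fall of Hpgd was not tested. Ptgr1 measured 36.9 and 32.5 against 34.9 and 31.0 CPM, overlapping between the groups (-0.08 ± 0.0806, adjusted p 0.561). Ptger4 fell from 9.72 and 8.85 to 5.60 and 6.14 CPM, a 1.59-fold fall (-0.67 ± 0.136, adjusted p 0.000873). Deposited counts of Ttc33, which overlaps it, were 934.5 and 956.08 in control and 666.44 and 926.75 in alkaline medium. The part of shared reads in this fall was not tested. Ptger2 stayed near 1 CPM (0.862 and 0.543 against 1.19 and 1.07 CPM) and did not pass (0.68 ± 0.398, 95% interval -0.15 to 1.5, adjusted p 0.270), so no change was detectable at this depth.

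**Figure D3:**
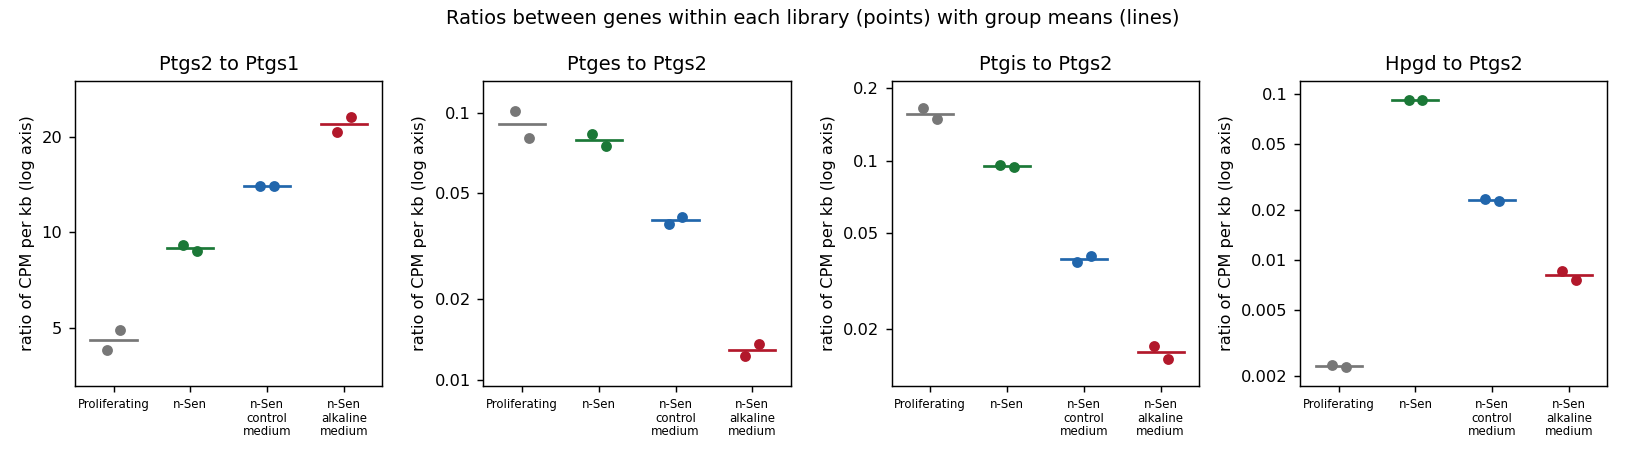
Ratios of CPM per kb within each library (log axes), with points for libraries and lines for group means. Ptgs2 to Ptgs1 runs from 4.27 in a proliferating library to 23.0 in an alkaline one, and Ptges to Ptgs2 from 0.101 to 0.0123; Hpgd to Ptgs2 is highest in n-Sen cells at 0.0918 and 0.0921.

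In the wider pathway, alkaline medium went with lower transcripts of prostaglandin carriers and of the prostacyclin receptor. Slco2a1 fell from 33.8 and 39.5 to 17.7 and 19.6 CPM (-0.98 ± 0.0887, adjusted p 1.66e-08) and Abcc4 from 23.3 and 24.3 to 16.7 and 15.0 CPM (-0.59 ± 0.0928, adjusted p 4.34e-05), so 2 of 3 transporter genes fell and 0 rose. Slco3a1, the third, did not pass (0.12 ± 0.0530). Of 9 other receptor genes tested, 3 fell, 1 rose and 5 did not pass (median 0.00). Ptgir fell from 2.30 and 1.55 to 0.743 and 0.659 CPM (-1.46 ± 0.338, adjusted p 0.00277). Pparg fell from 5.39 ± 0.196 to 2.90 ± 1.05 CPM and Ppard by 0.22 on the log2 scale, while Ptgfrn, whose product binds the prostaglandin F receptor, rose by 0.23 ± 0.0511.

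Of 10 other prostanoid enzyme genes tested, 3 fell, 1 rose and 6 did not pass (median -0.23). Cbr2 fell from 21.8 and 21.4 to 10.7 and 11.7 CPM (-0.96 ± 0.0992) and Hpgds from 8.94 and 7.86 to 4.98 and 5.98 CPM (-0.62 ± 0.146). Zadh2 fell by 0.33. The one that rose was Akr1b3, the aldose reductase with prostaglandin F synthase activity, from 86.7 and 82.8 to 123 and 126 CPM (0.55 ± 0.0507, adjusted p 2.32e-08). In fatty acid release 1 of 7 rose (Plaa, 0.14 ± 0.0498), 1 fell (Anxa1, -0.33 ± 0.0388) and 5 did not pass (median 0.07). In the lipoxygenase branch 1 of 8 fell, Alox5 from 24.5 ± 0.377 to 20.0 ± 1.16 CPM, and 0 rose (median -0.05).

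The cyclic AMP list fell in 6 of 12 cases and rose in 0, with 6 that did not pass (median -0.40). Pde4b, Sik1, Fos, Nr4a1, Per1 and Dusp1 fell by 0.87, 0.80, 0.96, 0.65, 0.46 and 0.33 on the log2 scale. Pde4d (0.11 ± 0.0963) and Nr4a2 (-0.17 ± 0.102) were among those that did not pass.

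**Figure D4:**
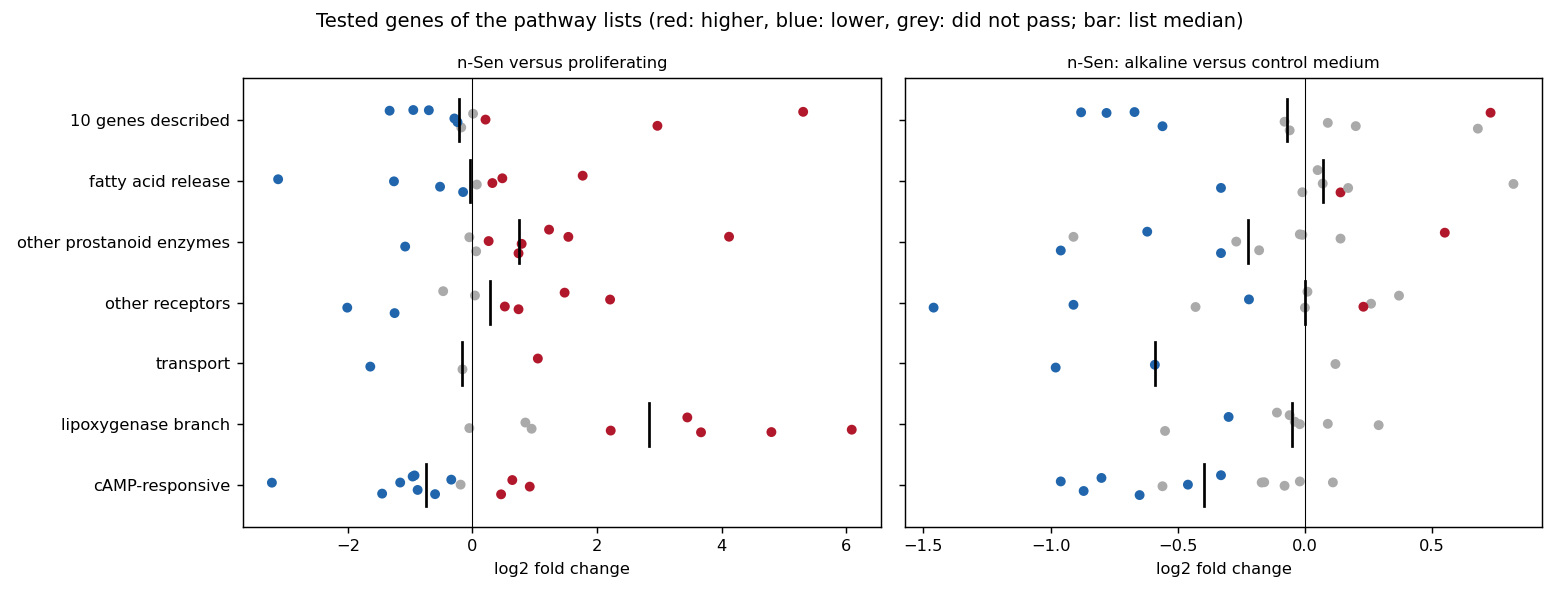
Log2 fold changes of the tested genes of each list (points, coloured by call) with the list median as a bar, for n-Sen against proliferating cells (left) and alkaline against control medium (right). The lipoxygenase branch has its median at 2.83 on the left and -0.05 on the right, and the cyclic AMP list lies lower in both, at -0.74 and -0.40.

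**Figure D5:**
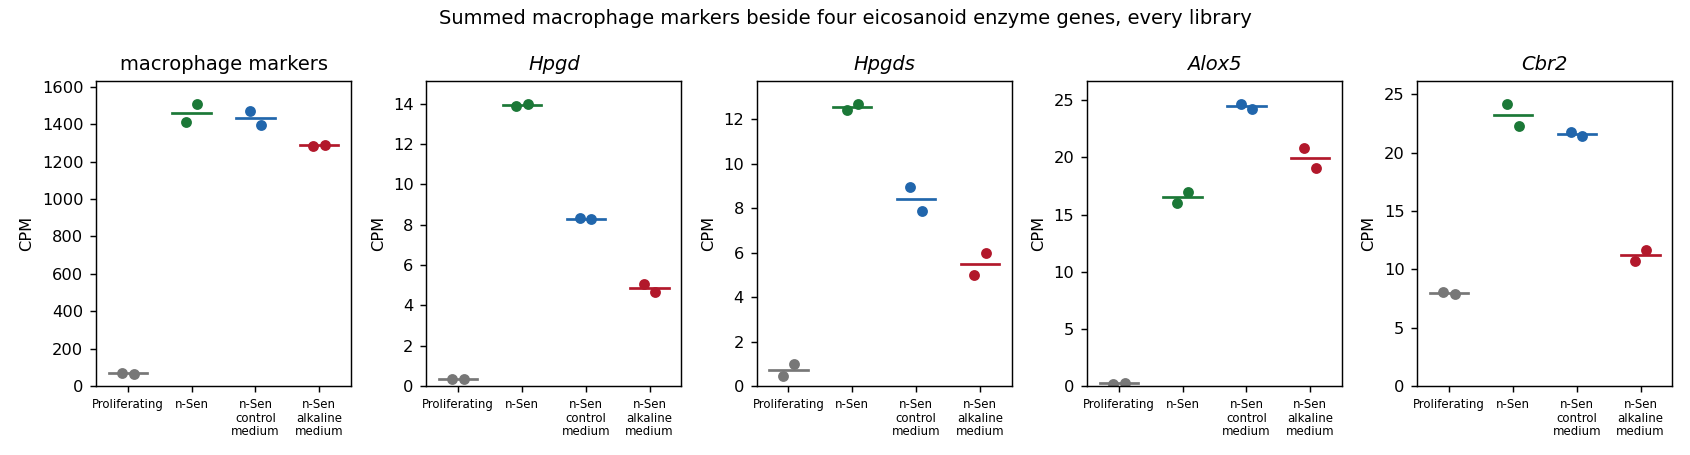
CPM of the summed 20 macrophage markers and of Hpgd, Hpgds, Alox5 and Cbr2 in every library (points), with group means as lines and vertical axes from 0. The marker sum lies between 1286 and 1510 CPM in the 6 n-Sen libraries, over which Hpgd ranges from 14.0 to 4.66 CPM. Lyz2 alone gives 672 to 751 CPM of that sum, so it shows little of the other markers. In alkaline against control medium 9 of the 20 markers fell, 0 rose and 11 did not pass.

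The last comparison, n-Sen_control against n-Sen, came from one fit of all 8 libraries. The groups come from different tables, so culture time, table and any difference in medium, which the labels do not settle, cannot be told apart. The n-Sen libraries are also those of the first comparison and the control-medium libraries those of the second, so its values stand beside them and are no separate support. COX-2 transcripts were 2.38-fold higher here, and those of COX-1 and the phospholipase were higher too. Of the 10 genes, 4 were higher (Ptgs2, Ptgs1, Pla2g4a, Ptger4), 1 was lower (Hpgd) and 5 did not pass, where 6.18% of 20215 genes were higher and 4.96% lower (1250 and 1003 genes). The groups did not overlap for 52.0% of all genes. Leaving out any one of the 4 libraries moved those counts to 731 to 816 higher and 450 to 569 lower.

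Ptgs2 rose from 410 and 414 CPM to 972 and 989 CPM (1.25 ± 0.0456, adjusted p 3.11e-14). Ptgs1 rose 1.52-fold, from 39.1 ± 1.44 to 59.4 ± 0.793 CPM (0.60 ± 0.0625, adjusted p 6.56e-07), and Pla2g4a 1.38-fold, from 119 ± 0.884 to 163 ± 6.53 CPM (0.46 ± 0.0507, adjusted p 1.50e-06). The phospholipase and both cyclooxygenases were thus all higher. The terminal synthases did not pass: Ptges differed by 0.24 ± 0.0911 (adjusted p 0.0983), Ptges2 by 0.10 ± 0.0932 and Ptgis by -0.04 ± 0.0856. Hpgd was 1.68-fold lower (-0.75 ± 0.127, adjusted p 0.000347), and Hpgds was also lower (-0.58 ± 0.163, adjusted p 0.0231). The macrophage markers, of which Lyz2 alone gave 672 to 751 CPM, summed to 1413 and 1510 against 1394 and 1471 CPM, and their part in either fall was not tested. Ptger4 was higher by 0.41 ± 0.130 at an adjusted p of 0.0447. That call was lost in DESeq2 (adjusted p 0.0759), with a replicate block (0.0571) and without n-Sen replicate 1 (0.370), n-Sen_control replicate 1 (0.281) or n-Sen_control replicate 2 (0.0828).

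The genes whose levels over the 8 libraries most resembled those of the cyclooxygenases were taken by Pearson's r of log2(CPM + 1). For Ptgs2 they included Nabp1 (r = 0.9992) and Fam167a (0.9967). Nabp1, a single-stranded DNA binding protein gene, measured 40.7 to 43.2 CPM in the proliferating and n-Sen libraries, 61.7 and 61.6 in n-Sen_control and 76.1 and 78.3 in n-Sen_alkali. Fam167a measured 0.444 to 0.657, then 1.74 and 1.75, then 3.02 and 2.98 CPM. For Ptgs1 they were Tnfaip6 (0.9924), Eif6 (0.9866) and Soat1 (0.9855). Tnfaip6, a secreted hyaluronan-binding protein gene, measured 7.59 and 7.55 CPM in proliferating, 0.879 and 1.07 in n-Sen, 3.34 and 3.82 in control and 4.36 and 4.66 in alkaline medium. These 8 points are 4 pairs of replicates that share 2 count tables, and the values are a description only.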

How the data were processed

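Per the labels' protocols, libraries of polyadenylated RNA were strand-marked with dUTP. The submitters' processing notes name mm10, fastp 0.23.2, HISAT2 2.1.0, Subread 2.0.2 with featureCounts, and DESeq2 1.34.0; the strand setting, the annotation release and the treatment of shared reads are not given in the sources used here. The authors deposited unscaled expected counts (fractions of a read can occur) in 2 tables of 54838 genes; 32.7% to 33.7% of a library's nonzero values were fractional. They were rounded to whole numbers. GENCODE vM21 (GRCm38, also called mm10) gave symbols for 54809 IDs, coordinates and merged exon lengths.

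Genes were filtered with filterByExpr, TMM-scaled and tested by quasi-likelihood in edgeR 4.0.16 (R 4.3.3); p-values were adjusted by Benjamini-Hochberg. The first comparisons each used their own 4 libraries, the third all 8. An SE is the absolute log2 fold change divided by the square root of F. With 2 libraries per group an exact permutation test could not pass, so ratios and levels carry no test. Alternatives were DESeq2 1.42.0, RLE scaling, no filter, a replicate block, each library left out and one fit of all 8. The scripts were tested on simulated data. The 10 genes and all lists were chosen with earlier results of these data known. The text names all 10 genes, other list genes that passed in either of the first comparisons and averaged 1 CPM or more in some group (the rest by count), 4 label checks and the 3 genes nearest to each cyclooxygenase. Among these, 2 results are not reported here. Protein sequences were not used here.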

Additional observations from a re-analysis of the deposited data

How the results depend on the processing

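For alkaline against control medium, all 90 values of the 10 genes under the 9 alternatives kept their direction where called and their side of the threshold, with Ptgs2 between 0.70 and 0.76, Ptges between -0.99 and -0.78, Ptgis between -0.62 and -0.50, Hpgd between -0.84 and -0.72 and Ptger4 between -0.74 and -0.60. For n-Sen against proliferating cells 82 values did so and 8 did not: those of Ptges2, Ptges and Ptger2 given in the report. For control medium against n-Sen 75 did so and 5 did not, all of Ptger4. The cause of these changed calls was not tested, and a left-out fit also had fewer libraries. Called genes in that comparison fell from 1250 to between 731 and 816 higher, and from 1003 to between 450 and 569 lower, when any one library was left out. Same-numbered libraries did not deviate together (r of deviations -0.000844, -0.00364 and -0.00403), so the numbers are not taken as pairs; with the replicate block 6455 genes were higher and 6271 lower in n-Sen, 2056 and 2254 in alkaline medium and 1168 and 910 in control medium. Where a library was left out, the lone one was assumed to vary like the other group. Low counts limit Ptger2 most, which had no more than 0.217 CPM per kb in any group mean.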
